A study of Rattus norvegicus with 10 samples.

Results

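Axon growth and regeneration genes were examined in hippocampal messenger RNA of rats with epilepsy after electrical stimulation of the amygdala and of sham-operated rats. The list held 10 genes: Gap43, Atf3, Sprr1a, the stathmins Stmn1, Stmn2, Stmn3 and Stmn4, Basp1, Marcks and Crmp1. They were listed by name, and each was read from the row of the count matrix whose RefSeq identifier belongs to its symbol, taking the row with the highest mean count where there were several. Of the 10 genes, 9 had a row among the 32041 rows of the matrix. No identifier listed for Stmn3 was matched, so Stmn3 was not analysed here. Sprr1a had too few reads to be tested, which left 8 genes among the 22447 tested rows.

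A growing axon ends in a growth cone, whose advance depends on dynamic microtubules, on an actin meshwork under the membrane and on adhesion to its surroundings. GAP43, BASP1 and MARCKS are membrane-bound proteins of the growth cone that act on the actin cytoskeleton, the stathmins bind tubulin and destabilise microtubules, and CRMP1 carries semaphorin signals to the cytoskeleton. ATF3 is a transcription factor switched on by injury in regenerating peripheral neurons, where Sprr1a is switched on as well. In the epileptic hippocampus, dentate granule cells extend new mossy fibre collaterals into the inner molecular layer, a rearrangement known as mossy fibre sprouting, and it was asked how these genes were expressed in the tissue that holds the granule cells.

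All 10 animals were adult male Sprague-Dawley rats, an outbred strain, and all carried a bipolar electrode in the left lateral amygdala, placed under isoflurane with butorphanol. The 5 sham rats (rats 1 to 5) were matched in age and received no current. The 5 stimulated rats (rats 6 to 10) received current pulses of 400 µA at 60 Hz for 30 min, prolonged where needed, to evoke status epilepticus, which was then stopped with diazepam, and they were monitored for spontaneous seizures by video EEG. Stimulation, the ensuing seizures and the drug that ended them therefore came together and cannot be told apart. Tissue with the CA3 field and the dentate gyrus of the left hippocampus, labelled as dorsal hippocampus, was taken 3 months after status epilepticus, and each library came from 1 animal.

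Aligned counts lay between 13552309 and 24086059 per rat. The unaligned share was 32.8 to 37.1% in sham and 32.0 to 45.1% in stimulated rats. Of the marker genes listed for the tissue, all 5 neuronal markers, 6 of 8 granule cell markers and 3 of 5 CA3 markers were tested. Levels were summed over all listed markers with a row, tested or not. The sums were 2384 to 2666, 543 to 685 and 215 to 248 CPM (counts relative to the scaled library size) in sham rats. In stimulated rats they were 2222 to 2736, 477 to 742 and 213 to 274 CPM. The 5 markers of the CA1 field, all tested, summed to 176 to 297 CPM in sham rats. In stimulated rats they reached from 100 CPM in rat 10 to 354 CPM in rat 6. How much CA1 tissue each sample held was not tested. In bulk tissue, fewer cells of a type and less RNA per cell cannot be told apart.

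Most of the growth-associated genes were counted at nearly the same level in both groups, and Atf3 stood apart from them. By the quasi-likelihood test of edgeR, 0 of the 8 tested genes passed an adjusted p of 0.05, as did 0% of all tested rows (below an unadjusted p of 0.001 there were also 0 genes, beside 0.174% of all rows). At an unadjusted p-value under 0.05 there was 1 gene, Atf3, beside 9.86% of all rows. Atf3 was higher in stimulated rats, as were 6.7% of all rows at this cut-off, with 3.16% lower. Log2 fold changes (the log2 ratio of stimulated over sham) were above 0 for 4 genes and below 0 for 4 genes, with a median of -0.0018, beside 0.012 for all tested rows. For the 7 genes other than Atf3 the 95% intervals of the fold change all held no change, and together they reached from 0.659-fold to 1.38-fold. In 0 of the 8 genes were the groups free of overlap, where 0.695% of all rows were higher and 0.597% lower without overlap.

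**Figure D1:**
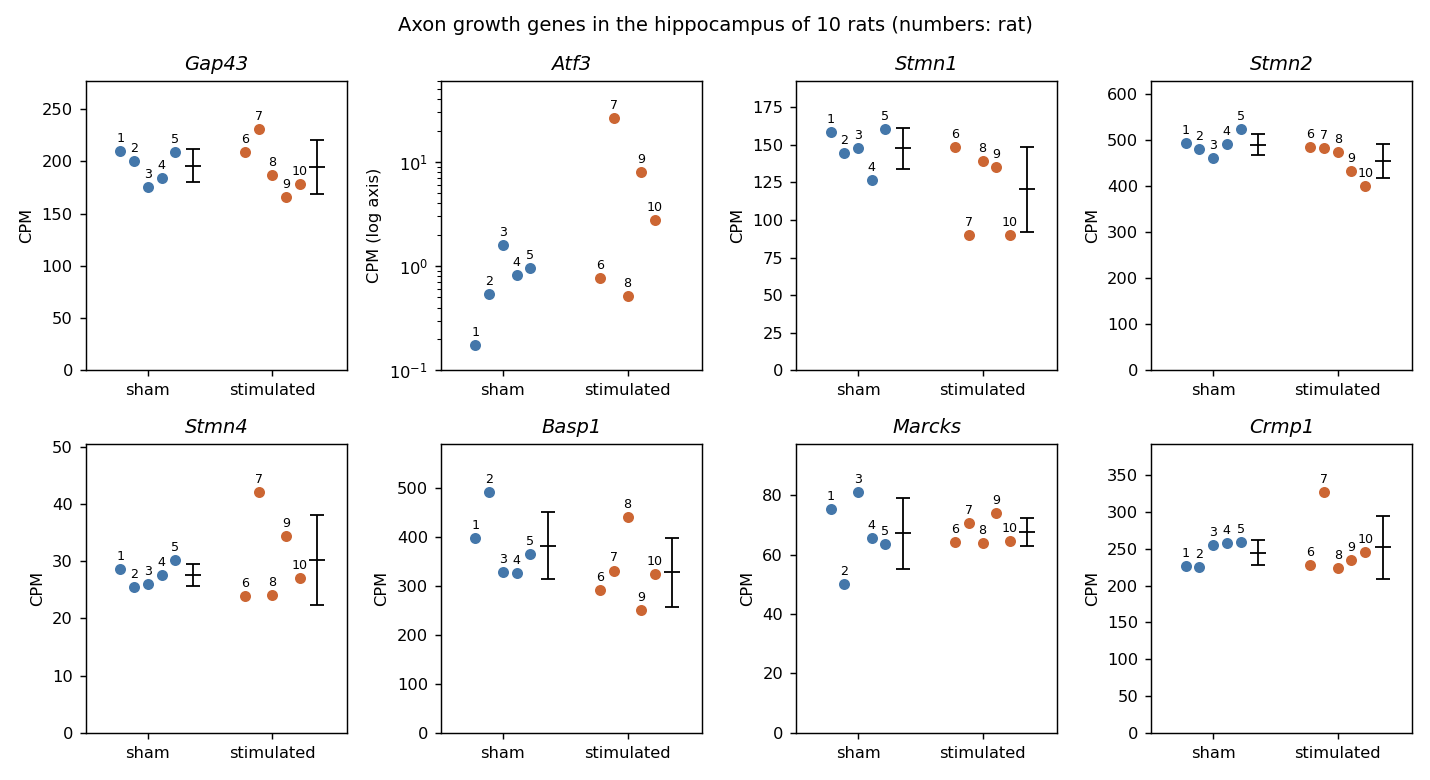
Level of the 8 tested genes in each of the 10 rats, in CPM on the vertical axis, with sham rats in blue and stimulated rats in orange. Numbers name the rats, bars give the mean and SD of 5 rats, and Atf3 is drawn on a log axis without bars. Atf3 in stimulated rats 7, 9 and 10 lay above all sham rats, and Stmn1 in rats 7 and 10 lay below them.

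Gap43 (NM_017195), the classical marker of growing and sprouting axons, was counted at 210.3, 201, 175, 184 and 209 CPM in sham rats 1 to 5. Stimulated rats 6 to 10 had 209, 231, 187, 166 and 178 CPM. Rat 7 was the highest and rat 9 the lowest of all 10 animals, so both ends of the range were stimulated rats. The means were 196 ± 15.7 CPM for sham and 194 ± 25.8 CPM for stimulated animals (SD, n = 5 per group). The log2 fold change was -0.011 (SE 0.0982, 95% interval -0.22 to 0.20, adjusted p = 0.981), which corresponds to 0.857-fold to 1.15-fold.

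Atf3 (NM_012912) was scarce in sham rats, with 3, 7, 29, 20 and 23 counts in rats 1 to 5, or 0.175, 0.534, 1.58, 0.827 and 0.964 CPM. In stimulated rats 6 to 10 it had 17, 566, 8, 158 and 54 counts, or 0.769, 26.3, 0.511, 8.06 and 2.79 CPM. Rats 7, 9 and 10 were above all sham rats, and rats 6 and 8 lay within the sham range. The highest stimulated rat exceeded the highest sham rat 16.7-fold.

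The mean of Atf3 was 0.816 ± 0.523 CPM for sham and 7.68 ± 10.8 CPM for stimulated animals (SD, n = 5 per group), a ratio of 9.42 in which the SD of the stimulated rats exceeded their mean. The fitted log2 fold change was 3.20 (SE 0.909, 95% interval 1.25 to 5.16, unadjusted p = 0.00347, adjusted p = 0.380). Its unadjusted p-value was the 197th lowest of the 22447 rows. Without rat 7 the log2 fold change was 1.85, with an unadjusted p-value of 0.0179. The unadjusted call was lost in limma-voom (p = 0.114) and in the exact permutation test of log2 CPM (two-sided, p = 0.127, smallest possible value 0.00794). It was strengthened in edgeR's likelihood ratio test (adjusted p = 0.0469), which called 0.53% of all rows. The study itself, with fewer stimulated rats, lists Atf3 as upregulated in this model by edgeR, with an adjusted p-value below 0.05.

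The same 3 rats carried high counts of Fos (NM_022197), an immediate early gene transcribed within minutes of neuronal activity. Fos was counted at 106, 50.3 and 61.7 CPM in rats 7, 9 and 10 and at 5.61 and 5.24 CPM in rats 6 and 8, beside 3.26 to 5.32 CPM in sham rats. The order of the 3 rats was not the same, since rat 10 had more Fos and less Atf3 than rat 9. Over the whole list of 9 immediate early genes, 8 had an unadjusted p-value under 0.05, all higher, beside 6.7% of all rows, and none was at 0. Their summed level was 146 to 190 CPM in sham rats and 670.1, 1631 and 654 CPM in rats 7, 9 and 10, against 197 and 147 CPM in rats 6 and 8. Whether neuronal activity lay behind these counts, and what part it had in the Atf3 level, was not tested.

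Sprr1a (NM_021864), a small proline-rich protein of the cornified envelope that promotes neurite growth in injured sensory neurons, was nearly absent. Its counts were 0 in all 5 sham rats and in rats 6, 8 and 9, and 4 each in rats 7 and 10. These counts correspond to 0.186 and 0.206 CPM. A count of 0 allows a level of up to 0.124 to 0.229 CPM in the 5 sham libraries (3 counts, counting error only), so no difference between groups was detectable at this depth. Rats 7 and 10 were also high for Atf3, and rat 9, with the second highest Atf3 level, had 0 counts of Sprr1a.

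The promoter of Sprr1a is shown because this gene carries motifs of the AP-1 family, to which Fos and Jun proteins bind and to which ATF3 is related. The sequence covers the 250 bases before the gene's start in the RefSeq table for the build GRCr8, chr2:180752626-180752875, minus strand, written 5′ to 3′ with matches to TGANTCA in capitals. It is not in the coordinates of the build used for alignment.
Sprr1a: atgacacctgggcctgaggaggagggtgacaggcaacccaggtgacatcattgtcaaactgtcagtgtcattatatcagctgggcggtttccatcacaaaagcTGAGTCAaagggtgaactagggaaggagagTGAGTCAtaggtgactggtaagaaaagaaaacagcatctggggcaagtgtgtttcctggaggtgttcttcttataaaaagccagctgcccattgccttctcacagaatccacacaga

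Both matches read TGAGTCA and begin 147 and 117 bases before the start. The motif reads the same on both strands with any base in its centre, and it does not overlap the CRE motif TGACGTCA, which was not found in this window. Of 33469 promoter windows of this length, 6.34% held at least 1 match to TGANTCA and 0.311% held at least 2. The windows of Stmn1, Stmn3, Basp1, Marcks and Crmp1, the other 5 genes of the list with an entry, held no match to either motif. A match describes letters and not a bound site.

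Among the stathmins, Stmn1 (NM_017166) is the ubiquitous member that is abundant in newborn neurons. It was counted at 158, 145, 148, 127 and 160.4 CPM in sham rats 1 to 5 and at 149, 89.9, 139, 135 and 90.1 CPM in stimulated rats 6 to 10. Rats 7 and 10 were well below all sham rats, and rats 6, 8 and 9 lay within the sham range. The means were 148 ± 13.4 CPM for sham and 121 ± 28.3 CPM for stimulated animals (SD, n = 5 per group). The log2 fold change was -0.29 (SE 0.144, 95% interval -0.60 to 0.016, unadjusted p = 0.0610, adjusted p = 0.525).

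The unadjusted p-value of Stmn1 lay close to 0.05 and crossed it in some fits, at 0.0425 in limma-voom, 0.0485 with upper quartile factors and 0.0180 without rat 6. It was 0.120 without rat 7 and 0.150 without rat 10. Gfap, the intermediate filament of astrocytes, was counted at 6469 and 5396 CPM in the same 2 rats, beside 1327 to 1927 CPM in sham rats. Aqp4, at 162 and 192 CPM, and Slc1a3, at 749 and 687 CPM, were also above all sham rats in rats 7 and 10. Their highest sham levels were 121 and 629 CPM. Slc1a2 exceeded the sham maximum of 182 CPM in rat 7, at 193 CPM, and in rat 9, at 241 CPM. Rat 9, with Stmn1 within the sham range, was also above all sham rats for Gfap (2079 CPM), Aqp4 (159 CPM), Slc1a3 (691 CPM) and Gja1 (385 CPM). Its Aldh1l1 level, 41.2 CPM, lay within the sham range. Aqp4 was above all sham rats in rats 6 and 8 as well, at 126 CPM each. Not all astrocyte markers went with Gfap, since Aldh1l1, at 16.4 and 29.3 CPM, was below the sham range of 40.5 to 50.9 CPM in both rats. Gja1 was below all sham rats in rat 7 (271 CPM), and Gja1 and Slc1a2 lay within the sham range in rat 10. The summed level of the 6 astrocyte markers, most of it Gfap and none of them at 0, was 7861 and 6796 CPM in rats 7 and 10, beside 2512 to 3092 CPM in sham rats and 2604, 2677 and 3597 CPM in rats 6, 8 and 9. The summed neuronal markers lay just above the sham range of 2384 to 2666 CPM in rat 7, at 2668 CPM, and below it in rat 10, at 2222 CPM. Single markers differed. Rbfox3 (124 and 178 CPM), Snap25 (547 and 451 CPM) and Syt1 (354 and 253 CPM) were below all sham rats in rats 7 and 10. Eno2 was above them in both (774 and 784 CPM), and Map2 was above them in rat 7 (869 CPM) and within their range in rat 10. Rbfox3 was also below all sham rats in rats 6 and 9, and Snap25 in rat 9. The part of cell composition in the Stmn1 level was not tested.

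Stmn2 (NM_053440), also called SCG10, is the neuronal stathmin of growth cones. Sham rats 1 to 5 had 494, 481, 460.0, 490.3 and 523 CPM, and stimulated rats 6 to 10 had 485, 483, 475, 432 and 400.3 CPM. Rats 9 and 10 were below all sham rats and no stimulated rat was above them. Its means were 489.6 ± 23.0 and 455 ± 37.4 CPM (SD, n = 5 per group), and the log2 ratio of -0.11 (SE 0.0753, adjusted p = 0.662) had a 95% interval of -0.27 to 0.056. With coefficients of variation of 4.70% in sham and 8.22% in stimulated rats, Stmn2 was the most even of the 8 genes in sham rats.

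Stmn4 (RB3), another neuronal stathmin, was spread over 6 rows of transcript variants with similar counts in a rat. They ran from 863 to 908 in rat 7 and, less evenly, from 437 to 548 in rat 10. How reads shared by variants were counted was not stated, so whether a row holds all or part of the reads of the gene is unknown. The chosen row (NM_001270856) was counted at 28.7, 25.4, 26.1, 27.6 and 30.1 CPM in sham rats 1 to 5 and at 23.8, 42.1, 24.1, 34.4 and 27.0 CPM in stimulated rats 6 to 10. Rats 7 and 9 were above all sham rats, and rats 6 and 8 were below all of them. The log2 fold change was 0.14 (SE 0.151, 95% interval -0.19 to 0.46, adjusted p = 0.799), and without rat 7 it was -0.026.

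The 6 rows of Stmn4 together gave 157 ± 12.0 CPM for sham and 174 ± 49.7 CPM for stimulated animals (SD, n = 5 per group). Rats 7 and 9 were again highest, at 245 and 205 CPM, and rats 8 and 6 lowest, at 132 and 133 CPM. The log2 fold change of the sum was also 0.14 (SE 0.156, adjusted p = 0.798). Within the stathmins, rat 7 was thus at the low end for Stmn1 and at the high end for Stmn4, and in the middle of the sham range for Stmn2.

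Basp1 (NM_022300), also called CAP23 or NAP22, and Marcks (NM_001271090) are substrates of protein kinase C that bind acidic lipids of the inner membrane. Basp1 was counted at 397, 491, 327, 326 and 364 CPM in sham rats 1 to 5 and at 291, 331, 439, 250.1 and 324 CPM in stimulated rats 6 to 10. Rats 6, 9 and 10 were below all sham rats and rat 8 was second only to sham rat 2. The means were 381 ± 68.3 and 327 ± 70.5 CPM (SD, n = 5 per group), with a log2 ratio of -0.22 (SE 0.147, 95% interval -0.54 to 0.094, adjusted p = 0.635). Without rat 8 it was -0.36, with an unadjusted p-value of 0.0139.

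Marcks had 75.3, 50.1, 81.1, 65.6 and 63.7 CPM in sham rats 1 to 5 and 64.3, 70.7, 63.8, 74.1 and 64.7 CPM in stimulated rats 6 to 10. All stimulated rats lay within the sham range. The means were 67.2 ± 11.9 and 67.5 ± 4.63 CPM (SD, n = 5 per group). The log2 fold change was 0.0072 (SE 0.118, 95% interval -0.25 to 0.26, adjusted p = 0.990).

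Crmp1 (NM_012932), a mediator of semaphorin signals that collapse the growth cone, was counted at 227, 225, 255, 258 and 259 CPM in sham rats 1 to 5. Stimulated rats 6 to 10 had 228, 327, 224, 234 and 246 CPM. Rat 7 stood alone above all others, rat 8 lay just below the lowest sham rat, and rats 6, 9 and 10 were within the sham range. The means were 245 ± 17.4 and 251.9 ± 42.8 CPM (SD, n = 5 per group), and the log2 fold change was 0.042 (SE 0.106, 95% interval -0.19 to 0.27, adjusted p = 0.924). Without rat 7 it was -0.082.

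**Figure D2:**
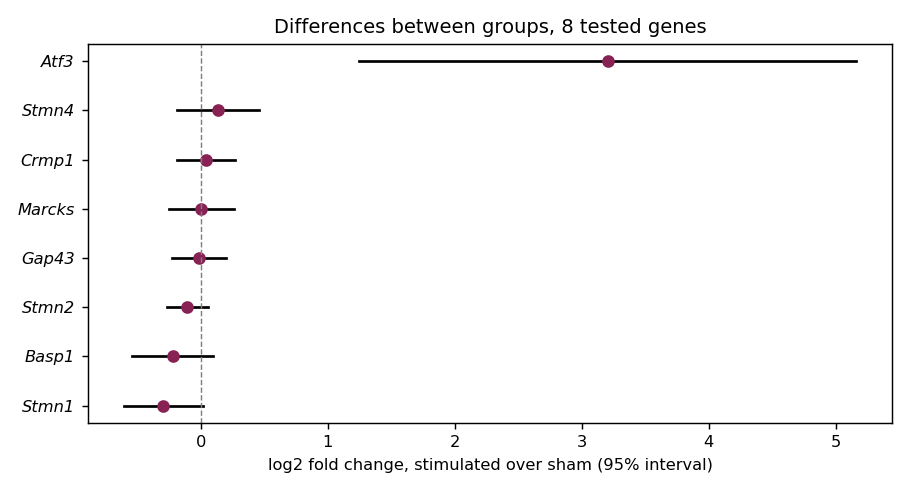
Log2 fold change of stimulated over sham rats (horizontal axis) for the 8 tested genes, with points for the estimate and lines for the 95% interval. The interval of Atf3, from 1.25 to 5.16, lay above 0 and the other 7 intervals held 0.

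Stimulated rats varied more than sham rats for 7 of the 8 genes. The SD of log2 CPM was 3.57 times that of sham rats for Stmn4, 2.63 times for Stmn1, 2.31 times for Atf3 and 2.17 times for Crmp1. Marcks was the exception, at 0.364 times. The wider spread was common to the data, since 69.5% of all tested rows had a higher SD in stimulated rats, with a median ratio of 1.37. Rat 7 was above all sham rats for 4 of the 8 genes and below all of them for 1, where 28.8% and 26.8% of all tested rows were. Rats 6 and 8 were above all sham rats for 0 genes and below for 2 each, beside 16.0% above and 14.2% below of all rows for rat 6 and 17.7% above and 17.6% below for rat 8.

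For each gene the 3 most similar patterns over the 10 rats were taken by Pearson's r of log2 CPM among 10195 genes, as a description. The pattern of Atf3 was most like that of Dusp14, a phosphatase (r = 0.974, Spearman's rho = 0.976), Josd1, a deubiquitinase (r = 0.968, rho = 0.867), and Stat3, a transcription factor of cytokine signalling (r = 0.965, rho = 0.915). Without rats 7 and 9, the 2 rats farthest from the median of Atf3, r was 0.930, 0.924 and 0.850. Stat3 was counted at 218, 118 and 97.1 CPM in rats 7, 9 and 10 and at 55.7 and 52.9 CPM in rats 6 and 8, beside 52.9 to 72.2 CPM in sham rats.

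The pattern of Stmn1 was most like those of the zinc-sensing receptor Gpr39 (r = 0.965, rho = 0.927), the Wnt agonist Rspo1 (r = 0.960, rho = 0.745) and Lypd1 (r = 0.957, rho = 0.806). Without rats 7 and 10 these values of r fell to 0.759, 0.579 and 0.579, so the similarity rested largely on those rats. Lypd1 was counted at 19.8 and 22.8 CPM in rats 7 and 10 and at 54.9 to 82.6 CPM in sham rats. For Gap43 the closest genes were Cwc15, Mnat1 and Armc10 (r = 0.964, 0.927 and 0.912). For Stmn2 they were Vdac2, Glod4 and Tmem179b, for Stmn4 Pcbp3, Tdg and Coq10b, for Basp1 Amacr, Fbxo31 and Tmem41a, for Marcks Tfrc, Tbc1d1 and Katnbl1, and for Crmp1 Vps50, Hdac2 and Gon7, with r between 0.892 and 0.963. Without the 2 rats farthest from the median of each gene, r for these genes lay between 0.583 (Katnbl1) and 0.977 (Vdac2). Without rats 5 and 7, the values for Crmp1 were 0.813, 0.663 and 0.613.

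Beyond the 10 genes, related genes were read from lists written by role. The lists were chosen with earlier results of these data known, so an excess over all rows is not independent of those results. Genes that injured peripheral neurons switch on together with Atf3 were represented by 22 genes, of which 19 were tested. Of these, 11 had an unadjusted p-value under 0.05 and were higher in stimulated rats and 1, Arg1, was lower, where 6.7% and 3.16% of all rows were. None had an adjusted p-value under 0.05. The median log2 fold change was 0.79, beside 0.012 for all rows, and 17 of 19 genes were above 0. Rat 7 was above all sham rats for 17 of the 19 genes, rats 9 and 10 for 13 each, rat 8 for 8 and rat 6 for 5, where 28.8, 25.6, 25.6, 17.7 and 16.0% of all rows were. Lif and Plaur, counted among the 11, had at most 0.233 and 0.218 CPM in sham rats. Their sham reads alone were too few for the count filter. They were tested only through their reads in stimulated rats, so their higher calls carry no weight. The count of 11 was 9 with at least 10 counts in 4 samples, 6 without rat 7 and 4 in limma-voom.

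Plat, the tissue plasminogen activator that clears matrix ahead of growing neurites, had the lowest p-value of these genes. It was counted at 47.0, 48.2, 42.8, 40.4 and 46.1 CPM in sham rats 1 to 5 and at 63.0, 167, 55.5, 78.1 and 123 CPM in stimulated rats 6 to 10. Each of the 5 stimulated animals exceeded the highest sham rat, with a log2 ratio of 1.12 (SE 0.248, adjusted p = 0.376). The groups were also free of overlap for Gadd45a, Tubb6 and Arg1, which were singled out after their values were seen, so that 3 of 19 genes were higher and 1 lower without overlap, beside 0.695% and 0.597% of all rows.

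Sox11, a transcription factor of young neurons, was counted at 0.703 to 2.23 CPM in sham rats and at 1.18, 10.7, 2.17, 33.5 and 3.66 CPM in stimulated rats 6 to 10 (log2 fold change 3.08, SE 0.790, adjusted p = 0.376). Rats 7, 9 and 10 were above all sham rats, as for Atf3, but rat 9 and not rat 7 was the highest. Hspb1, a small heat shock protein, reached 415 CPM in rat 7 and 28.6 CPM in rat 10, beside 3.90 to 8.27 CPM in sham rats (log2 fold change 3.96, SE 1.05, adjusted p = 0.376). It was 7.65, 9.20 and 11.9 CPM in rats 6, 8 and 9.

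**Figure D3:**
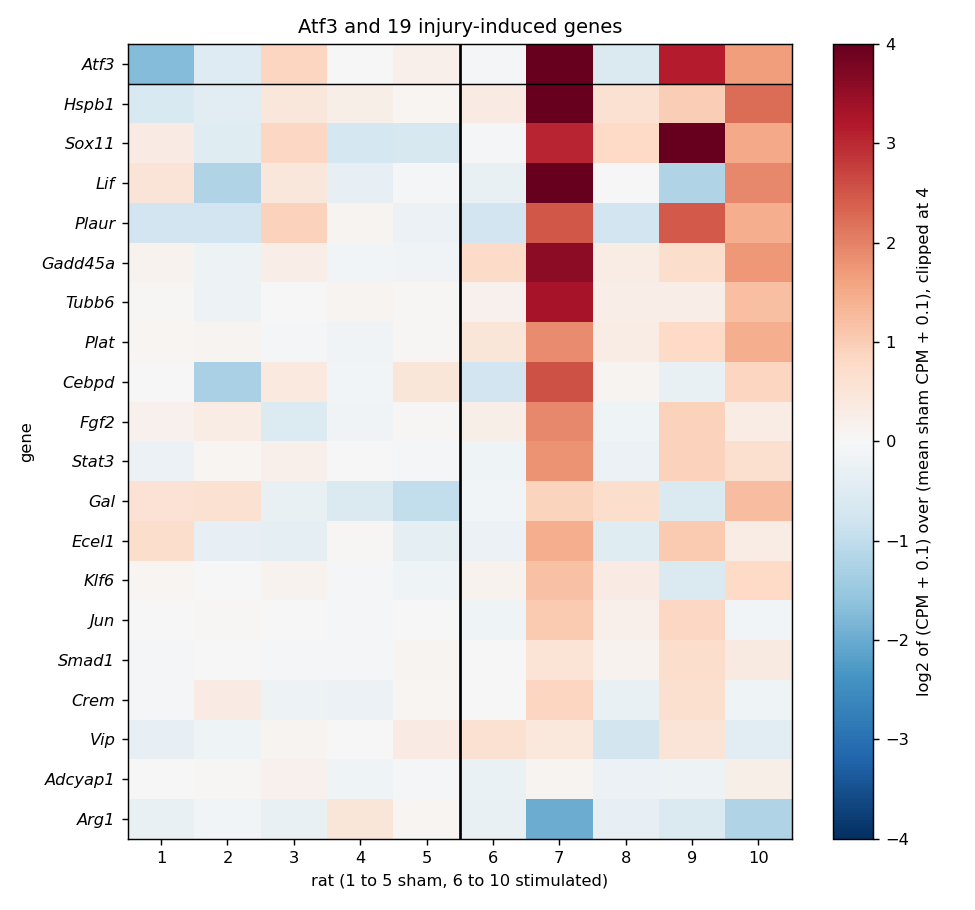
Level of Atf3 and of the 19 tested injury-induced genes (rows) in each rat (columns), as log2 of CPM plus 0.1 over the mean of sham rats plus 0.1, with red above and blue below the sham mean and colours clipped at 4. Rats 7, 9 and 10 are red for most genes, rats 6 and 8 are paler although Plat, Gadd45a and Tubb6 exceed all sham rats in both, and Arg1 is lowest in rats 7 and 10.

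Structural genes of the growth cone were read next. Of 27 cytoskeletal and adhesion genes, 25 were tested, 0 had an adjusted p-value under 0.05, and 1 was higher and 1 lower at an unadjusted p-value under 0.05, which is near the 6.7% and 3.16% of all rows. The median log2 fold change was -0.031, beside 0.012 for all rows, with 11 genes above and 14 below 0. Dclk1, a microtubule-binding kinase related to doublecortin, was counted at 258 to 349 CPM in sham rats and at 319.8, 885, 262, 448 and 468 CPM in stimulated rats 6 to 10 (log2 fold change 0.68, SE 0.252, adjusted p = 0.420). The adhesion molecule L1cam had a log2 ratio of -0.26 (SE 0.121, adjusted p = 0.503) and Dpysl3, a relative of Crmp1, one of -0.37 (SE 0.185, adjusted p = 0.534).

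Inhibitors of axon growth and their signalling genes were represented by 17 genes, of which 16 were tested. At an unadjusted p-value under 0.05, 5 were higher and 0 lower, beside 6.7% and 3.16% of all rows, and 0 passed the adjusted threshold. The median log2 fold change was 0.16, beside 0.012 for all rows. The count of 5 was 2 to 6 when single rats were left out, and 2 without rat 1, 2, 4, 5 or 7 and 3 without rat 9. Lingo1, a co-receptor of the Nogo receptor, was counted at 241 to 313 CPM in sham rats and at 263, 1138, 273, 908 and 463 CPM in stimulated rats 6 to 10 (log2 fold change 1.07, SE 0.342, adjusted p = 0.399). Socs3, which restrains cytokine signalling through Stat3, reached 25.1 CPM in rat 7 and 3.98 CPM in rat 9, beside 0.289 to 1.91 CPM in sham rats (log2 fold change 2.93, SE 0.955, adjusted p = 0.399). Klf9 had a log2 ratio of 0.35 (SE 0.158, adjusted p = 0.488).

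Kinases and binding partners of the growth cone proteins showed no gene with an unadjusted p-value under 0.05 among 16 tested of 17 listed, beside 6.7% of all rows higher and 3.16% lower. Of these, 14 were below 0 and 2 above, with a median log2 fold change of -0.071, beside 0.012 for all rows. The lowest p-values belonged to the calcium/calmodulin-dependent kinases Camk2a, Camk2b and Camk4, at log2 ratios of -0.16 (SE 0.0903), -0.12 (SE 0.0784) and -0.23 (SE 0.188) and adjusted p-values of 0.563, 0.634 and 0.711.

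Of the 11 other genes of the ATF and CREB family, 10 were tested and 0 passed adjustment, with 1 higher and 1 lower at an unadjusted p-value under 0.05, beside 6.7% and 3.16% of all rows. Jdp2, a repressor related to Atf3, was lower, at 7.27 to 9.63 CPM in sham rats and 6.83, 3.81, 6.32, 5.05 and 4.95 CPM in stimulated rats 6 to 10 (log2 fold change -0.59, SE 0.172, adjusted p = 0.388). All stimulated rats were below all sham rats, as for 0.597% of all rows. Atf4, the effector of the integrated stress response, was counted at 80.9 to 93.8 CPM in sham rats and at 185, 112 and 120.4 CPM in rats 7, 9 and 10, with 92.4 and 83.1 CPM in rats 6 and 8 (log2 fold change 0.45, SE 0.173, adjusted p = 0.425). Atf7 had a log2 ratio of 0.36 (SE 0.218, adjusted p = 0.605).

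**Figure D4:**
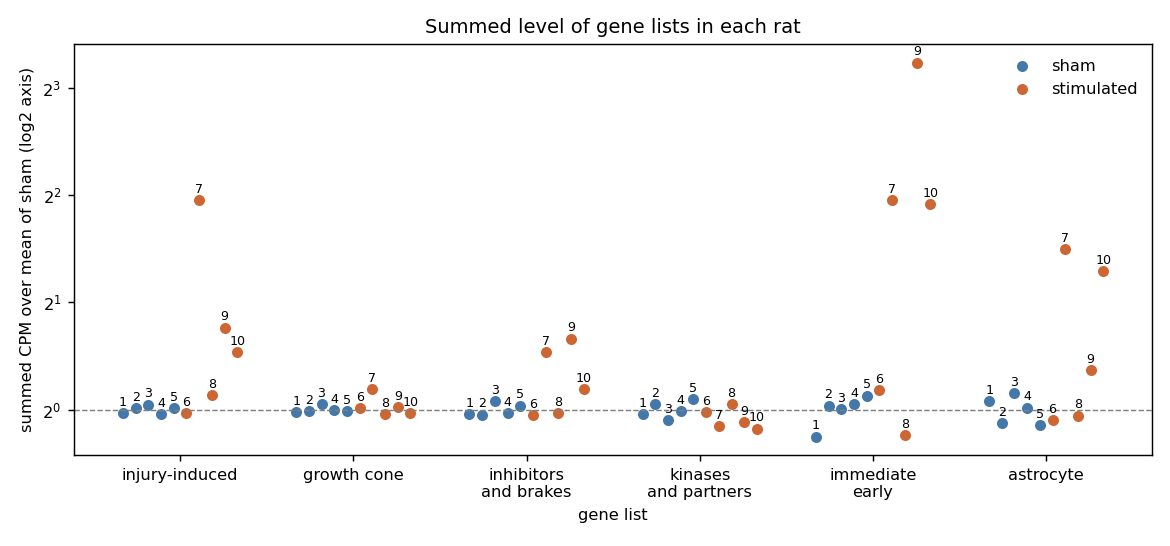
Summed CPM of 6 gene lists in each rat, divided by the mean of the sham rats, on a log2 axis, with sham rats in blue, stimulated rats in orange and numbers naming the rats. Injury-induced, inhibitor and immediate early genes are highest in rats 7, 9 and 10, whereas the growth cone and kinase lists stay near the sham level.

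Markers of the cells that bear mossy fibres were also read. The 7 granule cell and mossy fibre markers with a row gave no tested gene with an unadjusted p-value under 0.05 among 6 (6.7% and 3.16% of all rows), with a median log2 fold change of -0.0038. Slc30a3, the zinc transporter of mossy fibre vesicles, singled out after its values were seen, averaged 217 ± 20.8 CPM for sham and 246 ± 71.4 CPM for stimulated animals (SD, n = 5 per group). Its log2 ratio was 0.18 (SE 0.162), and Prox1 and Stxbp6 were also above 0, at 0.15 (SE 0.217) and 0.34 (SE 0.167). C1ql3, C1ql2 and Calb1 were below 0, at -0.30 (SE 0.198), -0.25 (SE 0.266) and -0.15 (SE 0.207). Among 5 markers of immature granule cells, Sox11 was higher and Neurod1 lower at an unadjusted p-value under 0.05, against the same shares. Neurod1 had a log2 ratio of -0.76 (SE 0.282, adjusted p = 0.420), and Dcx one of -0.17 (SE 0.114, adjusted p = 0.651). These markers, Fos and Stat3 were likewise given with their values known. Of the 6 endothelial markers, 4 were higher at an unadjusted p-value under 0.05, and of the 6 astrocyte markers 4 were, which places both lists above the 6.7% of all rows.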

How the data were processed

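The deposited values are raw counts of reads in 10 rats, in rows named by RefSeq transcript identifiers, not normalized. Per the methods of the study, the authors aligned single reads of 36 cycles to the rat build RN4 with BWA and counted them with their own script. The methods name an Ensembl annotation for the counted regions, whereas the rows carry RefSeq identifiers, so the exact regions behind a row are not known. The handling of shared reads and of strand was not stated, so genes with close copies are uncertain. Unaligned reads, a row of their own (32.0 to 45.1% per rat), were kept out of library sizes and tests. Symbols came from the RefSeq table of GRCr8 by transcript identifier (57.8% of tested rows matched). Rows with a summed count below the 30th percentile (46 counts) were left out.

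Stimulated and sham rats, grouped by the treatment label, were compared in R 4.3.3 with edgeR 4.0.16 (quasi-likelihood test, TMM factors, no covariates), and p-values were adjusted by Benjamini-Hochberg across the 22447 rows. CPM used the TMM-scaled library sizes, and log2 CPM a prior count of 2. Intervals are 95% intervals of the fit. Before use, the fit was run on simulated counts to check that set fold changes were recovered. The simulation gave both groups the same dispersion, so it does not bear on p-values or intervals where stimulated rats varied more. Alternatives used limma 3.58.1, DESeq2 1.42.0 and scipy 1.17.1. The genes, the related lists and the markers were chosen with earlier results of these data known. The named related genes are the 3 with the lowest p-value of each list, or any with an unadjusted p-value under 0.001, and the genes named for a similar pattern had a mean count of at least 50. The labels name separate rats and give no batch, which left no batch to compare within. Per the study's methods fewer stimulated rats entered this assay than the labels list. All 10 were used, and each was left out in turn.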

Additional observations from a re-analysis of the deposited data

Results flagged for a closer look

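Crmp1 in stimulated rat 7 was counted at 327 CPM, apart from the other 4 stimulated rats at 224 to 246 CPM. The gap to the nearest rat took 0.792 of the range of the group, above Dixon's critical value of 0.71 for 5 samples. Of 16 groups of 5 rats examined, 1 exceeded this value, where 0.8 are expected by chance.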

How the results depend on the processing

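No paired analysis was possible because the labels number the rats from 1 to 10 with no number shared by the groups. The number of genes past an adjusted p-value of 0.05 was 0 in each alternative except the likelihood ratio test, where it was 1 (Atf3, log2 fold change 3.22). Over all tested rows, the likelihood ratio test called 119, edgeR's exact test 90 and DESeq2 33. Atf3 had adjusted p-values of 0.0566 in the exact test and 0.130 in DESeq2. The study's own edgeR list also holds Plat, Sox11, Hspb1, Gadd45a and Lingo1 as upregulated and Jdp2 as downregulated, with adjusted p-values below 0.05. At an unadjusted p-value under 0.05, 1 gene, Atf3, was higher in each alternative fit except limma-voom (0). It was not called in the exact permutation test either (p = 0.127). The number lower was 1 with upper quartile factors, without the filter on low counts and in limma-voom, and 0 to 2 when single rats were left out. The log2 fold change of Gap43 changed sign with library size alone (0.014) and that of Marcks with upper quartile factors (-0.020) and without the filter (-0.0040). When single rats were left out, it ranged from -0.092 to 0.041 for Gap43, from -0.088 to 0.084 for Marcks, from -0.026 to 0.20 for Stmn4, from -0.082 to 0.066 for Crmp1 and from 1.85 to 3.55 for Atf3, while Stmn1, Stmn2 and Basp1 were below 0 in each of these fits. The 11 injury-induced genes higher at an unadjusted p-value under 0.05 became 9 with at least 10 counts in 4 samples and with robust empirical Bayes. They became 4 in limma-voom and 6 to 14 when single rats were left out. The 5 inhibitor genes became 3 with RLE factors, with at least 10 counts in 4 samples and with robust empirical Bayes, 2 with upper quartile factors, 1 in limma-voom and 2 to 6 when single rats were left out. Alternatives for these 2 lists were added after the data were seen. The cause of these changes was not tested. Atf3 and Sprr1a were limited by depth, with counts of 3 to 29 and 0 in sham rats.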
